A study of Homo sapiens with 8 samples.

Results

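The genes described here are 10 enzymes that make asparagine, serine, proline and cysteine or that load single carbons onto folate: ASNS, PHGDH, PSAT1, PSPH, SHMT2, MTHFD2, ALDH18A1, PYCR1, CTH and CBS. They were chosen by name as biosynthetic enzymes placed under the transcription factor ATF4, and not by a threshold on their values. Earlier results of these data were known when they were chosen, so the choice is not independent of the values. All 10 were found among 31461 genes in the table, and all 10 passed the filter on low values that left 14635 genes to test. The study transfected 2 lung cancer lines with miR-29a-3p or with a control microRNA and sequenced their RNA, to look for potential targets of that microRNA.

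The 4 groups, of 2 libraries each, were A549-labelled cells given miR-29a-3p, A549-labelled cells given the control, H1299-labelled cells given miR-29a-3p and H1299-labelled cells given the control. A549 cells derive from a lung adenocarcinoma, and H1299 cells from a large cell carcinoma of the lung. The labels give the genotype of every library as WT, which names no introduced change and leaves the mutations of the lines aside. They state neither dose nor time after transfection, and the level of the transfected microRNA was not analysed here. Values are FPKM, fragment counts corrected for the length of a transcript and for the total mapped in each library, and means carry the SD of n = 2 libraries.

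Serine is made from a glycolytic intermediate in 3 enzymatic steps and feeds single carbons into folate inside mitochondria, from where formate leaves for purine and thymidylate synthesis. Asparagine and proline are made from aspartate and glutamate, and cysteine is made from homocysteine and serine by transsulfuration. ATF4 is translated more when the initiation factor eIF2α is phosphorylated, as in amino acid shortage or stress of the endoplasmic reticulum, and it binds composite C/EBP-ATF elements in genes of amino acid supply. Many tumour cells express the serine and folate enzymes at high levels. MicroRNAs of the miR-29 family repress mRNAs through matches to their seed in the 3′ UTR.

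The sequences below are those through which either regulator could be read. The mature miR-29a-3p (RefSeq, GRCh38.p14, chr7:130876748-130876769, minus strand) is shown with its seed, bases 2 to 8, in capitals. The longest annotated 3′ UTR of each enzyme was searched for matches to that seed, and the matches found in PYCR1 (a 7mer-A1 match, base 749 of the UTR) and PSAT1 (a 6mer match, base 382) are in capitals within their flanks.
hsa-miR-29a-3p: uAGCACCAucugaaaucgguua
PYCR1 3′ UTR: tgacctccctgggagGGTGCTAtc
PSAT1 3′ UTR: taggggggccctctaGGTGCTgaa

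None of the 10 enzymes carried the letters TGGTGCT, the full match to bases 2 to 8, in a 3′ UTR of 141 bases (ASNS) to 3323 bases (MTHFD2). Of 11632 tested genes with an annotated 3′ UTR, 16.4% carried it and 34.1% carried a match of 6 bases or more. The median 3′ UTR of those genes was 1355 bases long, and only MTHFD2 among the enzymes had a longer one. A match is a description of the letters in this window and not of binding.

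Promoters were taken from RefSeq as 250 bases before to 50 after a start, and 7 of the 10 enzymes had an entry. PSPH, SHMT2 and PYCR1 had none. The letters TGATGNAA, the core of the C/EBP-ATF element, were searched on both strands as the only motif, and were found in 1 of 2 entries of ASNS. There they read TGATGAAA, 68 to 61 bases before the start, and are in capitals in this stretch (GRCh38.p14, chr7:97872359-97872658, minus strand).
ASNS promoter: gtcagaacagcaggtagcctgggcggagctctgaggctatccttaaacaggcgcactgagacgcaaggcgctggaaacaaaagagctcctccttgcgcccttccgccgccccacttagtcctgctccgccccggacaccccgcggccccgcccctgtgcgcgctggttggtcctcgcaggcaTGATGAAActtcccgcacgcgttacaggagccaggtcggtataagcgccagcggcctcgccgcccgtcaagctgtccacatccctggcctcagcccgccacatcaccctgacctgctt

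Among promoters of the genes tested, 1.97% of 14141 held those letters, and among all RefSeq promoters 3.62% of 35116. No other enzyme's entry held them, which says only that this spelling is not in that window.

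Markers of the lines contradicted the labels. CDKN2A, a cell cycle inhibitor known to be deleted in A549, stood at 28.1 ± 0.40 FPKM after miR-29a-3p and 24.3 ± 0.72 in controls of the A549-labelled cells, against 0.073 ± 0.011 and 0.082 ± 0.043 in the H1299-labelled cells. ALDH1A1 oxidises retinaldehyde and is known to be abundant in A549 cells. It stood at 48.1 ± 1.73 and 59.2 ± 2.17 FPKM under the A549 label and at 1441 ± 41.6 and 797 ± 17.3 under the H1299 label. Every direction tied to a line below holds for the libraries as labelled. Libraries held an estimated 12221310 to 15614821 fragments and 12021 to 12837 genes at 1 FPKM or more. Markers of other cells were low in all libraries apart from CD68 (highest 24.9 FPKM), a lysosomal protein listed with the leukocyte genes. PTPRC, a gene of leukocytes, and CD3E, a gene of T cells, stayed at or under 0.0094 FPKM, and CD14 reached 0.964 FPKM. The 6 leukocyte markers summed to 24.5 to 25.9 FPKM after miR-29a-3p and 8.63 to 8.64 in controls under the H1299 label, and to 20.3 to 22.8 and 18.6 to 18.9 under the A549 label. The 7 fibroblast markers summed to 3.93 to 4.05 FPKM after miR-29a-3p and 2.31 to 2.38 in H1299-labelled controls, and to 0.265 to 0.363 and 0.384 to 0.553 under the A549 label. The 5 endothelial markers summed to no more than 0.432 FPKM in any library. The part of these marker lists in the results was not tested. A level is a share of a library's RNA, so less RNA per cell and fewer cells of a kind cannot be told apart.

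In the A549-labelled libraries 7 of the 10 enzymes rose after miR-29a-3p and none fell, where 7.3% of all tested genes rose and 8.66% fell. In the H1299-labelled libraries 6 fell and 2 rose, where 24.8% of all genes fell and 25.1% rose. ASNS, PHGDH, PSAT1 and CBS rose under the A549 label and fell under the H1299 label, a pattern shown by 1.72% of all genes. CBS reached 1 FPKM only in A549-labelled libraries with miR-29a-3p and in H1299-labelled controls. It thus passed the filter only through the groups that are high in this pattern, so its place in the count is not independent of the filter. The reverse pattern (2.05% of all genes) and a fall under both labels (4.07%) were shown by none of the 10. These are calls at an adjusted p under 0.05 by limma on log2(FPKM + 1), a scale that understates changes of low genes, and at an unadjusted p under 0.05 the number lower in the A549-labelled libraries was also 0. Without A549 control 2 the number that rose under the A549 label was 4, and without H1299 control 2 or either H1299 miR-29a-3p library 1 rose under the H1299 label. Counted by libraries alone, treated values lay wholly above their controls for 8 enzymes and wholly below for 1 under the A549 label, where 29.8% and 29.2% of all genes did so. Under the H1299 label they lay above for 2 and below for 7, where 38.5% and 37.4% of all genes did so.

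**Figure D1:**
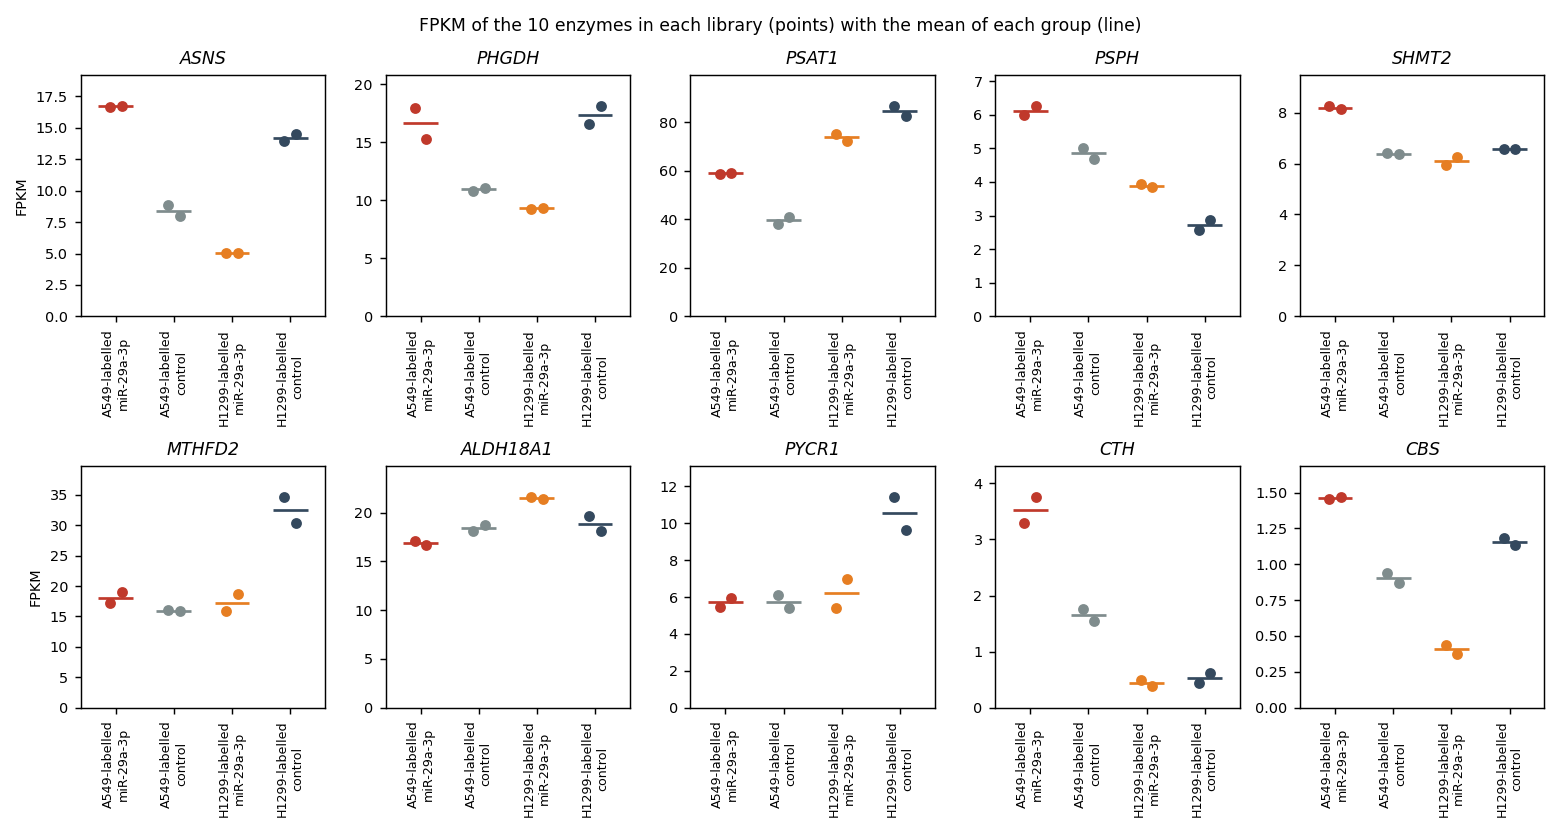
Each panel shows 1 enzyme, with its FPKM on the vertical axis from 0 and a point per library in the 4 groups, miR-29a-3p left of control for each label. ASNS reaches 16.7 FPKM in both A549-labelled libraries with miR-29a-3p and stays at 5.06 to 5.08 in the H1299-labelled ones, with both sets of controls in between.

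ASNS, asparagine synthetase, turns aspartate and glutamine into asparagine and is the classical ATF4 target of amino acid shortage. Its gene (ENSG00000070669) lies on chromosome 7 from 97852118 to 97872542, minus strand, GRCh38. In A549-labelled cells ASNS stood at 16.7 and 16.7 FPKM after miR-29a-3p and at 8.82 and 7.96 in controls. The treated libraries differed by far less than the distance to their controls, and the means of 16.7 ± 0.036 and 8.39 ± 0.61 FPKM gave a ratio of 1.99 (log2 fold change 0.92 ± 0.058, SE, adjusted p = 0.00056). In H1299-labelled cells ASNS stood at 5.08 and 5.06 FPKM after miR-29a-3p and at 13.9 and 14.5 in controls. That is 35.7% of the control mean (log2 fold change -1.33 ± 0.058, SE, adjusted p = 2.0e-05). These responses of opposite sign differed by 2.24 ± 0.083 on the log2 scale (SE, adjusted p = 4.1e-05), the 26th highest difference of 14635 genes. Of the annotated exon bases of ASNS, 44.6% are shared with AC079781.5 on the same strand, a transcript not listed in the table, so fragments there could belong to either.

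Of the 3 enzymes of the serine branch, the first and the last were called in opposite directions under the H1299 label. PHGDH, phosphoglycerate dehydrogenase, commits carbon from glycolysis to serine (ENSG00000092621, chromosome 1, 119648411 to 119744226). PHGDH stood at 18.0 and 15.3 FPKM after miR-29a-3p and at 10.8 and 11.0 in controls of the A549-labelled cells (log2 fold change 0.56 ± 0.082, SE, adjusted p = 0.0080). In the H1299-labelled cells it stood at 9.28 and 9.33 FPKM after miR-29a-3p and at 16.5 and 18.1 in controls (log2 fold change -0.83 ± 0.082, SE, adjusted p = 0.00034). The treated level was thus 1.52 times the control mean under one label and 53.7% of it under the other, with no overlap of libraries in either.

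PSAT1, the aminotransferase of the middle step, was the most abundant of the 10 enzymes in every library (ENSG00000135069, chromosome 9, 78297143 to 78330093). Its A549-labelled libraries held 58.7 and 59.1 FPKM after miR-29a-3p and 38.2 and 40.8 in controls, a ratio of 1.49 (log2 fold change 0.56 ± 0.049, SE, adjusted p = 0.0014). Its H1299-labelled libraries held 75.0 and 72.3 FPKM after miR-29a-3p and 86.6 and 82.7 in controls. That smaller decrease, to 87.1% of the control mean (log2 fold change -0.20 ± 0.049, SE, adjusted p = 0.015), was no longer called without H1299 control 1 (adjusted p = 0.076) or H1299 miR-29a-3p library 2 (adjusted p = 0.081).

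PSPH, the phosphatase that releases serine in the last step, was higher after miR-29a-3p under both labels (ENSG00000146733, chromosome 7, 56011051 to 56051604, minus strand). PSPH stood at 5.98 and 6.26 FPKM after miR-29a-3p and at 5.01 and 4.70 in controls of the A549-labelled cells (log2 fold change 0.28 ± 0.063, SE, adjusted p = 0.031). It stood at 3.93 and 3.84 FPKM after miR-29a-3p and at 2.59 and 2.86 in controls of the H1299-labelled cells (log2 fold change 0.39 ± 0.063, SE, adjusted p = 0.0027). No library of a treated group overlapped its controls, and the responses differed by -0.11 ± 0.09 (SE, adjusted p = 0.39), so this comparison does not tell them apart. PSPH was the only one of the 10 called higher in both sets of libraries, as were 2.94% of all genes. The A549-labelled call was lost without any one of the 4 libraries of that label (adjusted p = 0.071 to 0.133) and without either H1299-labelled library with miR-29a-3p (adjusted p = 0.057).

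Of the mitochondrial folate enzymes, SHMT2 was called under the A549 label and MTHFD2 under the H1299 label. SHMT2 splits serine into glycine and a single carbon carried on folate (ENSG00000182199, chromosome 12, 57229327 to 57234935). SHMT2 stood at 8.25 and 8.12 FPKM after miR-29a-3p and at 6.42 and 6.36 in controls of the A549-labelled cells, a ratio of 1.28 (log2 fold change 0.31 ± 0.049, SE, adjusted p = 0.0095). In the H1299-labelled cells it stood at 5.94 and 6.25 FPKM after miR-29a-3p and at 6.56 and 6.57 in controls (log2 fold change -0.09 ± 0.049, SE, adjusted p = 0.16). The A549-labelled change was small beside that of ASNS and was not called without A549 control 2 (adjusted p = 0.051). An antisense transcript shares 8.8% of its exon bases and stayed at or under 0.461 FPKM.

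MTHFD2 oxidises the folate-bound carbon on its way to formate (ENSG00000065911, chromosome 2, 74198562 to 74217565). In A549-labelled cells MTHFD2 stood at 17.2 and 19.0 FPKM after miR-29a-3p and at 16.1 and 15.8 in controls, a difference that did not pass the test (log2 fold change 0.17 ± 0.095, SE, adjusted p = 0.28). In H1299-labelled cells it stood at 15.9 and 18.6 FPKM after miR-29a-3p and at 34.6 and 30.4 in controls, 53.2% of the control mean (log2 fold change -0.88 ± 0.095, SE, adjusted p = 0.00050). The treated H1299-labelled level lay among the A549-labelled ones, whereas the H1299-labelled controls stood apart above all other libraries. Of the exon bases of MTHFD2, 27.2% overlap SLC4A5 on the opposite strand, which stayed at or under 0.56 FPKM.

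**Figure D2:**
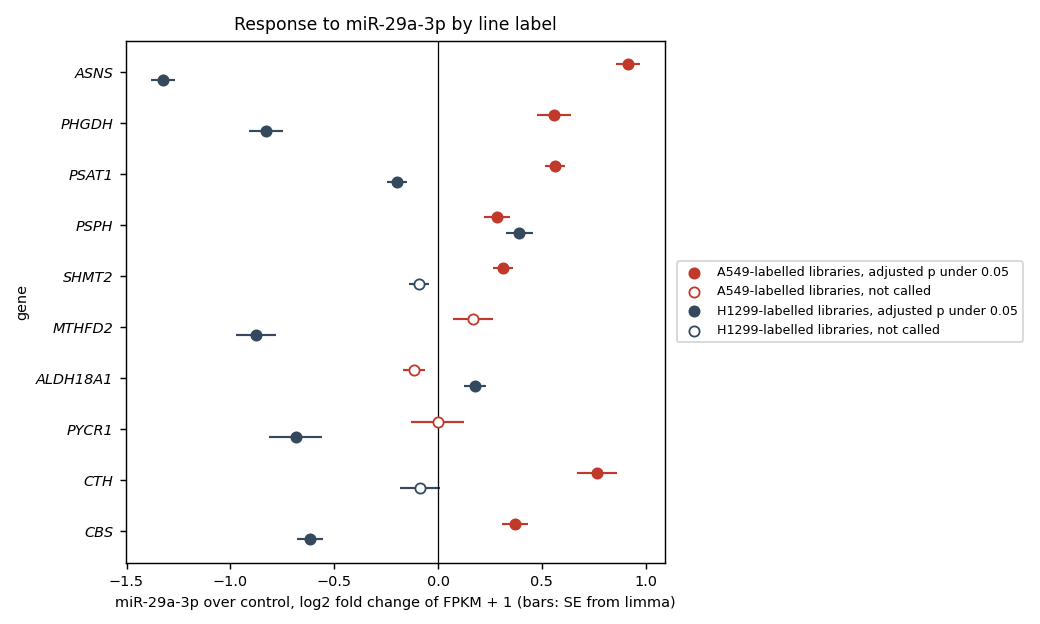
The log2 fold change of each enzyme, miR-29a-3p over control, is plotted with its SE for the A549-labelled and the H1299-labelled libraries. ASNS spans from 0.92 to -1.33, PSPH is above 0 under both labels, and ALDH18A1 alone is below 0 under the A549 label and above it under the H1299 label.

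The pair of proline enzymes were called in opposite directions under the H1299 label. ALDH18A1, which reduces glutamate to the precursor of proline, was the one enzyme whose treated A549-labelled libraries lay below their controls without overlap (ENSG00000059573, chromosome 10, 95605929 to 95656706, minus strand). ALDH18A1 stood at 17.1 and 16.7 FPKM after miR-29a-3p and at 18.1 and 18.7 in controls under the A549 label (log2 fold change -0.12 ± 0.053, SE, adjusted p = 0.19). It stood at 21.5 and 21.3 FPKM after miR-29a-3p and at 19.6 and 18.1 in controls under the H1299 label (log2 fold change 0.18 ± 0.053, SE, adjusted p = 0.030). This call is weak, since it was lost without H1299 control 2 (adjusted p = 0.136), H1299 miR-29a-3p library 1 (adjusted p = 0.108) or library 2 (adjusted p = 0.088).

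PYCR1, the reductase that finishes proline in mitochondria, carries the 7mer-A1 match printed above (ENSG00000183010, chromosome 17, 81932384 to 81942412, minus strand). Its A549-labelled libraries overlapped, with 5.48 and 5.97 FPKM after miR-29a-3p and 6.09 and 5.39 in controls (adjusted p = 0.996). Its H1299-labelled libraries did not, with 5.41 and 6.98 FPKM after miR-29a-3p and 11.4 and 9.66 in controls. PYCR1 had the largest SE of the 10, and its level fell to 58.8% of the control mean under the H1299 label (log2 fold change -0.68 ± 0.128, SE, adjusted p = 0.0049). Of its exon bases 14.1% are shared with MYADML2 on the same strand, a gene not listed in the table, and 15.6% with antisense AC145207.4, at or under 0.182 FPKM. PSAT1, which carries the 6mer match, rose in the A549-labelled libraries and fell in the H1299-labelled ones, as given above. Whether either match bears on these responses was not tested.

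The transsulfuration enzymes were the least abundant of the 10. CBS joins homocysteine with serine to cystathionine (ENSG00000160200, chromosome 21, 43053191 to 43076943, minus strand). CBS stood at 1.46 and 1.47 FPKM after miR-29a-3p and at 0.937 and 0.873 in controls of the A549-labelled cells, 161.5% of the control mean (log2 fold change 0.37 ± 0.063, SE, adjusted p = 0.013). It stood at 0.436 and 0.377 FPKM after miR-29a-3p and at 1.18 and 1.13 in controls of the H1299-labelled cells, 35.15% of the control mean (log2 fold change -0.62 ± 0.063, SE, adjusted p = 0.00039). Because CBS is low, its log2 fold changes grow with a pseudocount of 0.1, to 0.64 under the A549 label and -1.31 under the H1299 label. CBS followed ASNS in the sign of both changes, and its A549-labelled call ended when A549 control 2 was left out (adjusted p = 0.064), or miR-29a-3p library 1 or 2 of that label (adjusted p = 0.055 and 0.056). CBSL, a near-identical copy of CBS on the same chromosome, was listed at no more than 0.121 FPKM, and reads could have been split between the pair.

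CTH cleaves cystathionine to cysteine (ENSG00000116761, chromosome 1, 70411218 to 70439851). In A549-labelled cells CTH stood at 3.29 and 3.75 FPKM after miR-29a-3p and at 1.77 and 1.55 in controls. The ratio of 2.13 was the highest of the 10 under that label (log2 fold change 0.77 ± 0.097, SE, adjusted p = 0.0048). In H1299-labelled cells CTH was low, at 0.489 and 0.383 FPKM after miR-29a-3p and 0.434 and 0.622 in controls. Those are an estimated 18.3 and 14.4 fragments against 16.4 and 18.3, the groups overlap, and no difference was detectable at this depth (log2 fold change -0.09 ± 0.097, SE, adjusted p = 0.49).

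Whether the responses under the 2 labels differ was tested directly, as the A549-labelled log2 fold change minus the H1299-labelled one. The difference was called higher for 8 enzymes and lower for ALDH18A1, where 18.1% of all tested genes were higher and 19.2% lower. Beside ASNS, the differences were 1.39 for PHGDH (adjusted p = 0.00040), 1.04 for MTHFD2 (adjusted p = 0.0019), 0.99 for CBS (adjusted p = 0.00052), 0.85 for CTH (adjusted p = 0.0042) and 0.76 for PSAT1 (adjusted p = 0.00053). Their order depends on the pseudocount: with 0.1 in place of 1, CBS (1.95) lay above PHGDH (1.48), and CTH (1.26) above MTHFD2 (1.09). For CTH the H1299-labelled side rests on an estimated 14.4 to 18.3 fragments a library, too few to show a small response. SHMT2 differed by 0.41 (adjusted p = 0.0052). PYCR1 differed by 0.68 (adjusted p = 0.027), a call lost without A549 control 2 or either A549 miR-29a-3p library (adjusted p = 0.082, 0.054 and 0.081) and without H1299 control 1 or H1299 miR-29a-3p library 1 (adjusted p = 0.079 and 0.059). ALDH18A1 differed by -0.30 (adjusted p = 0.023), a call lost without A549 control 2 or A549 miR-29a-3p library 2 (adjusted p = 0.065 and 0.064), and without H1299 control 2 or either H1299 miR-29a-3p library (adjusted p = 0.055 to 0.065). The median response of the 10 was 0.34 under the A549 label and -0.41 under the H1299 label, beside 0.00 over all tested genes in each.

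**Figure D3:**
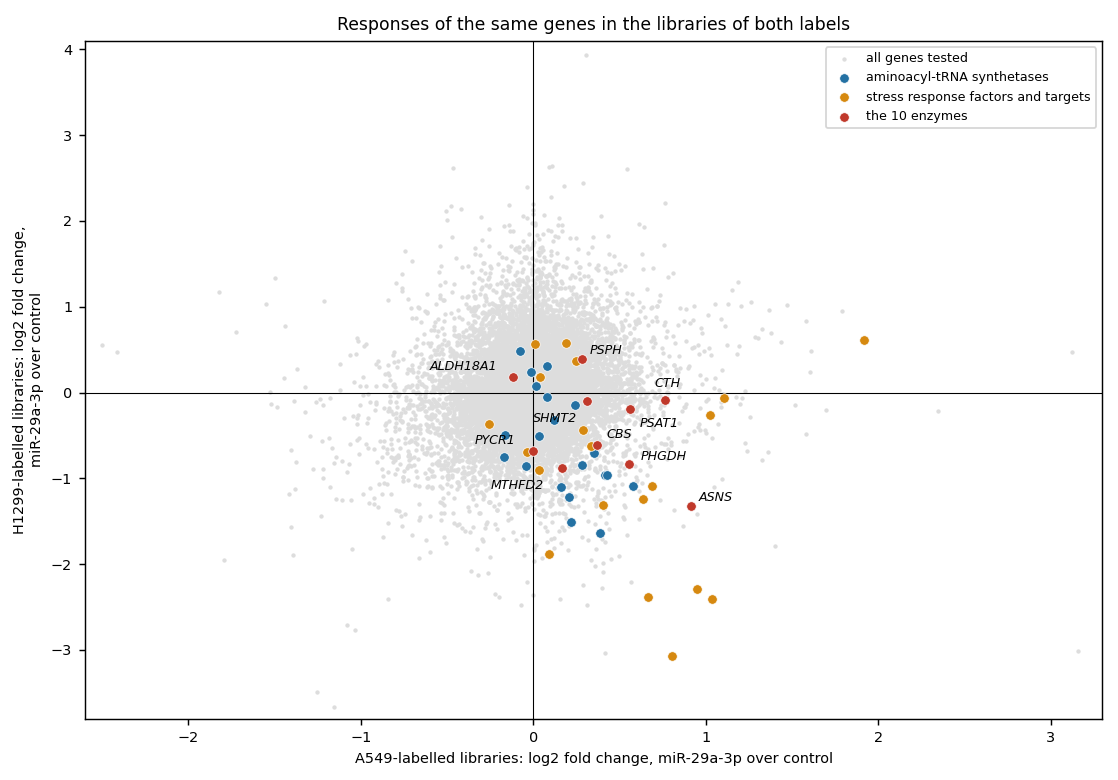
Each point is a gene, with its log2 fold change (miR-29a-3p over control) in A549-labelled libraries on the horizontal axis and in H1299-labelled libraries on the vertical axis. Most of the 10 enzymes, in red and named, lie right of and below 0, as do many aminoacyl-tRNA synthetases and stress response genes, while PSPH lies above 0 on both axes.

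Levels without miR-29a-3p also differed between the labels. In controls, 6 enzymes were lower in A549-labelled than in H1299-labelled cells and 2 were higher, where 29.8% of all genes were lower and 45.0% higher. PSAT1 stood at 39.5 ± 1.83 FPKM in A549-labelled and 84.6 ± 2.76 in H1299-labelled controls, and MTHFD2 at 16.0 ± 0.19 and 32.5 ± 2.96. CTH (1.66 ± 0.15 and 0.528 ± 0.13 FPKM) and PSPH (4.85 ± 0.22 and 2.73 ± 0.20) were higher in the A549-labelled controls. The call for CBS (log2 difference -0.18, adjusted p = 0.038) ended when any one of the 8 libraries was left out (adjusted p = 0.050 to 0.130). SHMT2 (-0.03, adjusted p = 0.54) and ALDH18A1 (-0.03, adjusted p = 0.59) were not called. These values shift with scaling: the median over all genes was 0.17 as deposited and -0.01 after rescaling, and 8 enzymes were then lower, SHMT2 (-0.23, adjusted p = 0.0053) and ALDH18A1 (-0.25, adjusted p = 0.0067) among them. Controls enter both this comparison and the responses, so the sets of values are not independent.

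Ordered by level, ASNS, SHMT2 and CBS had the same sequence of groups with no overlap between neighbours: A549-labelled with miR-29a-3p highest, then H1299-labelled controls, A549-labelled controls and H1299-labelled with miR-29a-3p. In PHGDH the top 2 groups of that sequence overlapped. For SHMT2 the 2 sets of controls, neighbours in that sequence, were not called apart by limma (-0.03, adjusted p = 0.54). The share of all genes with that sequence and no overlap was not counted. For MTHFD2 and PYCR1 the H1299-labelled controls stood above the other 3 groups, whose full order is not separable because neighbours overlap. In MTHFD2 the A549-labelled libraries with miR-29a-3p still lay above their controls. PSPH and CTH were highest in A549-labelled cells with miR-29a-3p, then in their controls.

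Other genes of the pathways were taken from lists chosen by function. Their counts, here and below, stand beside shares over all tested genes. Under the A549 label 7.3% rose and 8.66% fell, and under the H1299 label 25.1% rose and 24.8% fell. Of 16 tested folate enzymes outside the 10, 1 rose and none fell under the A549 label (limma, with 5 lower at an unadjusted p under 0.05), and 9 rose and 3 fell under the H1299 label, with medians of -0.04 and 0.26. ALDH1L2, which oxidises mitochondrial formyl-folate, had the pattern of ASNS, with 1.43 ± 0.042 FPKM after miR-29a-3p and 0.856 ± 0.014 in controls under the A549 label (adjusted p = 0.0078) and 1.66 ± 0.058 and 6.20 ± 0.0034 under the H1299 label (adjusted p = 1.6e-05). Its A549-labelled log2 fold change was 0.39, and 0.68 with a pseudocount of 0.1. TYMS, thymidylate synthase, went the other way in H1299-labelled cells, at 29.2 ± 3.47 FPKM after miR-29a-3p and 8.21 ± 0.82 in controls (log2 fold change 1.71, adjusted p = 6.7e-05). GLDC of the glycine cleavage system rose there too (log2 fold change 1.35, and 2.09 with a pseudocount of 0.1).

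Of 13 tested genes of the methionine cycle, transsulfuration and glutathione, 1 rose and 1 fell under the A549 label, and 6 rose and 3 fell under the H1299 label, with medians of 0.00 and 0.13. CHAC1, which degrades glutathione and is an ATF4 target, stood at 9.46 ± 0.55 FPKM after miR-29a-3p and 2.66 ± 0.065 in A549-labelled controls (log2 fold change 1.52, adjusted p = 0.00035), and its H1299-labelled libraries overlapped (2.39 ± 0.22 and 2.74 ± 0.28 FPKM). GCLM and GSS, of glutathione synthesis, rose under the H1299 label (log2 fold changes 0.89 and 0.58), while GCLC, of the same synthesis, fell there (-0.44). Of 17 other tested genes of amino acid synthesis, 1 rose and 3 fell under the A549 label, and 6 rose and 4 fell under the H1299 label, with medians of -0.06 and 0.30. ARG2, the mitochondrial arginase, fell in A549-labelled cells (log2 fold change -1.22), GOT1 and BCAT1, transaminases of aspartate and of branched-chain amino acids, fell in H1299-labelled cells (-0.86 and -0.87), and OAT, ornithine aminotransferase, rose there (0.58).

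**Figure D4:**
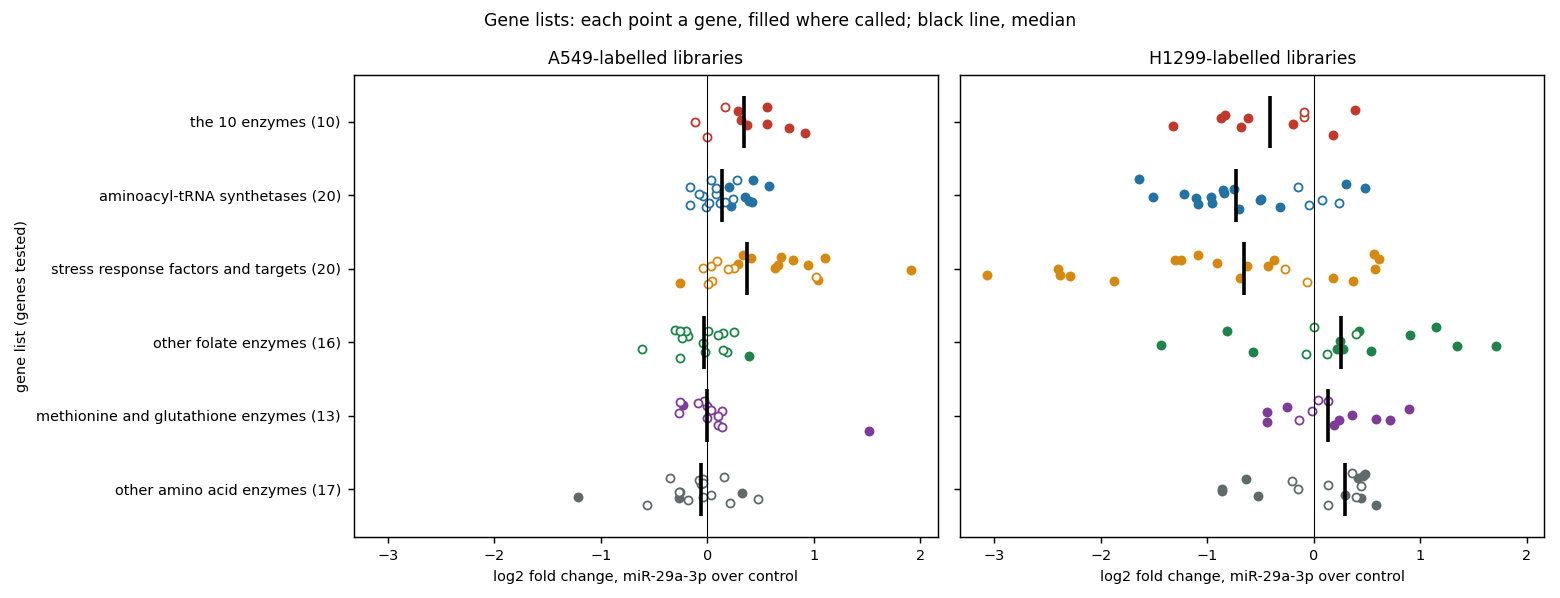
For each list, the log2 fold change (miR-29a-3p over control) of every tested gene is a point, with the A549-labelled libraries beside the H1299-labelled ones and the median as a line. The 10 enzymes have medians of 0.34 and -0.41, and the aminoacyl-tRNA synthetases 0.14 and -0.73.

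The cytosolic aminoacyl-tRNA synthetases load amino acids onto tRNAs, and many are ATF4 targets. Of 20 tested, 7 rose and none fell under the A549 label (limma, with 1 lower at an unadjusted p under 0.05). Under the H1299 label 14 fell and 2 rose. A rise under the first label and a fall under the second was shown by 7, beside 1.72% of all tested genes. AARS1, for alanine, stood at 58.0 ± 1.95 FPKM after miR-29a-3p and 44.1 ± 2.3 in A549-labelled controls, and at 53.3 ± 0.76 and 169 ± 5.69 under the H1299 label. GARS1, for glycine, and CARS1, for cysteine, had log2 fold changes of 0.58 and 0.41 under the A549 label and -1.09 and -0.96 under the H1299 label.

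Of 20 tested genes of the integrated stress response, 11 rose and 1 fell under the A549 label, with a median of 0.37. Under the H1299 label 5 rose and 13 fell, with a median of -0.66. A rise under the first label and a fall under the second was shown by 9, beside 1.72% of all tested genes. ATF4 itself stood at 76.4 ± 5.86 FPKM after miR-29a-3p and 60.4 ± 0.49 in A549-labelled controls (log2 fold change 0.33, adjusted p = 0.016), and at 95.0 ± 1.12 and 147 ± 6.47 under the H1299 label (log2 fold change -0.63, adjusted p = 0.00031). The A549-labelled call was lost without either A549 control (adjusted p = 0.073 and 0.070) or without A549 miR-29a-3p library 1 (adjusted p = 0.057). DDIT3, a stress-induced transcription factor, stood at 8.80 ± 0.66 FPKM after miR-29a-3p and 3.78 ± 0.29 in A549-labelled controls, and at 3.09 ± 0.29 and 20.6 ± 0.84 under the H1299 label. TRIB3, a pseudokinase induced by ATF4, stood at 15.9 ± 1.39 and 8.68 ± 0.28 FPKM under the A549 label, and at 15.7 ± 0.33 and 140 ± 6.29 under the H1299 label. STC2, a secreted glycoprotein, fell in H1299-labelled cells (log2 fold change -2.39) and rose in A549-labelled cells (0.67). Not all targets reversed: SESN2, an inhibitor of mTORC1, rose under both labels (1.92 and 0.61), and DDIT4, another, rose under the A549 label (1.10) and was not called under the H1299 label (-0.06, adjusted p = 0.48).

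Of 12 reference genes, 1 rose and none fell under the A549 label (limma, with 1 lower at an unadjusted p under 0.05), and 6 rose and 2 fell under the H1299 label, with medians of 0.05 and 0.24. Calls under the H1299 label were thus common among these genes too. Log2(FPKM + 1) over the 8 libraries, centred for each gene, was compared with the mean of the 10 enzymes. Among 6078 genes compared, ZBTB40, WASHC2C, AFAP1, NFKB1 and KDM6A lay nearest, with root mean square differences of 0.056 to 0.073. This measure depends on the size of changes as well as on their shape. Of the enzymes, SHMT2 (0.121), CBS (0.130) and PHGDH (0.175) lay nearest to their own mean, and CTH (0.593) lay farthest.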

How the data were processed

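RNA of 8 libraries was sequenced. The authors deposited FPKM values in 1 table, per the file headers, and the submitters' processing notes name StringTie and GRCh38. Not given in the sources used here: versions, aligner and strand setting. Whether the libraries of a group stem from separate cultures is not stated, and p-values then cover only the spread among them, possibly a technical one.

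From the FPKM as deposited, genes reaching 1 FPKM in 2 or more of 8 libraries were tested by limma 3.58.1 (R 4.3.3). The model used log2(FPKM + 1), a mean per group and a variance trend (4 residual degrees of freedom, prior 2.36). Every adjusted p is from limma by Benjamini-Hochberg over all 14635 genes. The test was planned for counts or normalised values, and the form for normalised values was used. Where 1 line does not list a gene, its value there was set to 0. Fragments were estimated from what 1 fragment is worth among low FPKM values, and 38.2% to 42.1% of values came out whole within 0.02, so no count test was run. The fit was tested on simulated data. Positions and 3′ UTRs are from GENCODE 29, and the microRNA and promoters from RefSeq.

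The members and lists were chosen with earlier results of these data known. Lists other than the 10 enzymes were other folate enzymes, methionine and glutathione genes, other amino acid enzymes, aminoacyl-tRNA synthetases, the integrated stress response and reference genes. The rule for named genes takes, per list and label, the 3 called genes with the largest positive and the 3 with the largest negative log2 fold change, adds ATF4, DDIT3, TRIB3, CDKN2A and ALDH1A1 and the 5 nearest profiles, and the examples printed were picked from these after their values were seen. Same-numbered libraries were checked for pairing (see the closing section). Alternatives were another pseudocount, other filters, rescaled libraries, a replicate block, each line alone, no trend, and each library left out. 1 gene that the rule takes is not reported here.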

Additional observations from a re-analysis of the deposited data

Results flagged for a closer look

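Responses that differed between the labels, by the test of the difference itself, are given here as the A549-labelled log2 fold change minus the H1299-labelled one. Among the 10 enzymes they were ASNS (2.24), PHGDH (1.39), PSAT1 (0.76), SHMT2 (0.41), MTHFD2 (1.04), PYCR1 (0.68), CTH (0.85), CBS (0.99) and ALDH18A1 (-0.30). All were higher under the A549 label except ALDH18A1, which was lower there. Over all tested genes, 18.1% differed upward and 19.2% downward. Of 20 stress response genes tested, 14 differed upward and 1, EIF2AK4 (-0.56), downward, and the examples of the report were ATF4 (0.96), DDIT3 (3.44), TRIB3 (3.87), SESN2 (1.30), DDIT4 (1.17) and STC2 (3.05). Of 20 synthetases tested, 14 differed upward and 1, QARS1 (-0.56), downward, and the examples were GARS1 (1.67), CARS1 (1.37) and AARS1 (2.03). Of 16 other folate genes tested, 3 differed upward and 8 downward, among them ALDH1L2 (1.82), TYMS (-1.96) and GLDC (-1.61). Of 13 methionine and glutathione genes tested, 2 differed upward and 6 downward, among them CHAC1 (1.66), GCLC (0.54), GCLM (-0.75) and GSS (-0.44). Of 17 other amino acid enzymes tested, 3 differed upward and 8 downward, among them ARG2 (-1.07), GOT1 (1.07), BCAT1 (1.03) and OAT (-0.65). The calls for PYCR1 and ALDH18A1 were lost with some libraries left out, as given in the report, and that for QARS1 without A549 control 2 or any one H1299-labelled library (adjusted p = 0.053 to 0.079). Groups of 2 libraries are too small for a check of single outlying libraries.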

How the results depend on the processing

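Of 568 member values recomputed, 520 kept their side of the threshold, 46 lost and 2 gained a call, and no called value reversed. Values not called could change sign, as did PYCR1 under the A549 label (log2 fold change -0.077 to 0.072). Of 1000 values for 23 of the other named genes, GCLC not among them, 14 lost and 2 gained a call and no called value reversed. Members called higher under the A549 label numbered 7, and 4 both with a mean of at least 5 FPKM, which leaves out PSPH, CTH and CBS, and with each line fitted alone, and 4 to 7 with a library left out. Members higher under the H1299 label numbered 2, and 1 with that filter, with the replicate block or with each line alone, and 1 to 2 with a library left out. Members with a lower response under the A549 than the H1299 label numbered 1, and 0 to 1 with a library left out. Members higher in A549-labelled controls numbered 2, and 0 with the filter. Genes called under the A549 label numbered 2336, against 1261 with the replicate block, 1071 with each line alone and 1066 to 1937 with a library left out. With a mean of at least 5 FPKM, genes called numbered 3773 under the H1299 label (7312 without), 2984 for the difference of responses (5464) and 4923 for the controls (10941), since fewer genes were tested. The cause of the other shifts was not tested. Rescaling turned 6586 higher and 4355 lower genes in the controls into 5383 and 5428. A pseudocount of 0.1 ended no member's call but that of CBS between controls (adjusted p = 0.057) and enlarged the fold changes of low genes, as given for CBS. With no filter on low values PSPH under the A549 label, the PYCR1 difference and CBS between controls lost their calls (adjusted p = 0.053, 0.066 and 0.068). Leaving out a library leaves 1 in its group, which is assumed to vary like the other groups.

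Deviations of libraries with the same number correlated at 0.018 (A549 label) and -0.011 (H1299 label), which shows no pairing by number. A correlation over all tested genes, low ones among them, cannot exclude a pairing. With the replicate block within a line, calls were lost for PSPH (adjusted p = 0.091) and CBS (adjusted p = 0.052) under the A549 label, ALDH18A1 under the H1299 label (adjusted p = 0.055), the PYCR1 difference (adjusted p = 0.079), CBS between controls (adjusted p = 0.072) and ATF4 under the A549 label (adjusted p = 0.053), and for no other member. With 2 libraries a group and 12221310 to 15614821 estimated fragments, low genes such as CTH under the H1299 label allow no small difference to be seen.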
